A study of Mus musculus with 24 samples.

Results

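Cyp26b1 and 8 further genes of retinoic acid metabolism, binding and receptors were followed across 4 tissues, as 9 of the 21368 genes that the arrays measure under a symbol. Cyp26b1 was chosen by its difference between Rap1 knockin (KI) and wild-type (WT) mice on these same arrays. The other 8 (Cyp26a1, Aldh1a1, Aldh1a2, Lrat, Crabp1, Rara, Rarb and Rarg) were selected for their place in the pathway, with results of these arrays already known. All 9 were on the array, where Rara had 2 probes, Rarb 3 and each of the others 1. The question was whether genes of retinoic acid synthesis, binding and signalling changed along with Cyp26b1.

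The samples came from 6 female mice, 3 per genotype, each of which gave liver, brain, heart and skeletal muscle, so that 24 arrays formed 8 groups of 3. The KI mice were homozygous for an I312R point mutation in Rap1 (Terf2ip), introduced with CRISPR/Cas9, which replaces the residue that RAP1 needs for binding TRF2 and hence telomeres. The knockin line had been backcrossed 4 times to C57BL/6N per the methods (C57BL6 in the labels), and the controls were WT littermates without the mutation. The labels name no treatment. The letters A, B and C stand for the KI mice, and D, E and F for their WT controls. C and F were 14 months old and A, B, D and E were 15 months old. The mutation is in the germline, so every cell carries it, and the samples were whole tissue, in which fewer cells of a type and less RNA per cell cannot be told apart.

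Retinoic acid is the active form of vitamin A. Retinol is esterified for storage by LRAT, mainly in the stellate cells of the liver, or oxidised to retinal and then to retinoic acid by the ALDH1A enzymes. Retinoic acid is carried in the cytosol by CRABP proteins, activates RARA, RARB and RARG as partners of RXR on response elements in DNA, and is broken down by the CYP26 enzymes.

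Values are levels on a log2 scale, namely the log2 processed signal of a probe minus the 75th percentile of its array, so that a difference of 1 is a 2-fold difference. Such levels compare arrays for 1 probe and do not rank different genes. On each array 49.4% to 68.4% of probes exceeded background clearly (the scanner software's call of well above background), and levels of arrays of the same group correlated at 0.965 to 0.987 over all probes. The markers of liver, brain, heart and skeletal muscle were high in the tissue so labelled, but 3 KI arrays also held transcripts of another tissue. In the brain of KI mouse C the mean level of 6 liver markers was 4.04, in the liver of KI mouse C the mean level of 6 skeletal muscle markers was 0.15 (−5.86 and −5.66 in the other KI livers), and in the muscle of KI mouse B those of 6 keratinocyte and 6 mammary epithelium markers were −0.37 and 0.31 (−3.74 to −2.84 in the other KI muscles). Terf2ip itself differed by −0.33 to −0.07 between the genotypes with adjusted p of 0.515 to 1 (limma), which does not check the genotype, since the mutation leaves the transcript in place.

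The promoter windows of the members differed in whether they held a repeat of the form searched for as a retinoic acid response element. Direct repeats of a hexamer, which could read AGGTCA as the usual form or AGTTCA, and likewise with a leading G as GGGTCA or else as GGTTCA, were searched on both strands with 1, 2 or 5 bases of any kind between the hexamers, from 250 bases before to 50 bases after each RefSeq start (GRCm38.p6). Of the 14 windows that the 9 genes have in that table, 2 held such a repeat, 1 at Rarb and 1 at Cyp26a1, both with the spacer of 5 bases. That repeat was found in 32 of all 32851 windows (0.0974%), while the repeats with spacers of 1 and 2 bases were found in 0.222% and 0.268% of windows. The windows of Cyp26b1, Aldh1a1, Aldh1a2, Lrat, Crabp1, Rara and Rarg held none, which says only that these letters are not in these windows. The 250 bases before the start are shown for the 2 genes with a repeat and for Cyp26b1, which has none, with the repeat in capitals. The repeat of Rarb lies on the strand of the gene, at −53 to −37 from the start. That of Cyp26a1 lies on the opposite strand, at −32 to −16, so that the capitals show its complement read from the gene's strand.
Rarb promoter, chr14:16575477-16575726, minus strand: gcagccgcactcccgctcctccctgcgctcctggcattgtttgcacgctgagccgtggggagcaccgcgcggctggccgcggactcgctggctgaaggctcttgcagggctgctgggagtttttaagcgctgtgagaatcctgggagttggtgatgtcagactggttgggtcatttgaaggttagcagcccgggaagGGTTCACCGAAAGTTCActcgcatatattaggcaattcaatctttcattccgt
Cyp26a1 promoter, chr19:37697558-37697807, plus strand: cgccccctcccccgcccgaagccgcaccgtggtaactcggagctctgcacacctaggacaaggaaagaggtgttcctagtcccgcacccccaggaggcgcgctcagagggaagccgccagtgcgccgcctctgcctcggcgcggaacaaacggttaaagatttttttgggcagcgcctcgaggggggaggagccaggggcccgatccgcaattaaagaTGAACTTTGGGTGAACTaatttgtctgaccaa
Cyp26b1 promoter, chr6:84593811-84594060, minus strand: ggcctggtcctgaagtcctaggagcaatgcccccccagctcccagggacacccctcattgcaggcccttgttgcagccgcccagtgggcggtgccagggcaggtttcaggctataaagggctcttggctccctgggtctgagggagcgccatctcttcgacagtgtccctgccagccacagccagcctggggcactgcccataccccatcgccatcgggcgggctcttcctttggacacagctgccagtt

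In liver, heart and muscle Cyp26b1, a hydroxylase that clears retinoic acid, was higher in every KI mouse than in any WT mouse, by 2.58-fold to 3.90-fold, and in brain the genotypes overlapped. These values chose the gene, so they are given as a description, without a test. In liver its levels were 2.23, 2.78 and 3.36 in KI mice A, B and C and 1.35, 1.16 and 1.01 in WT mice D, E and F. The difference was 1.61 (SE 0.28, limma), or 3.06-fold. The KI hearts stood at 2.53, 1.85 and 2.23 and the WT hearts at 1.02, 0.83 and 0.65, a difference of 1.37 (SE 0.20), or 2.58-fold. The KI muscles stood at 2.91, 3.27 and 2.28 and the WT muscles at 1.63, 0.18 and 0.75, a difference of 1.96 (SE 0.41), or 3.90-fold. The groups do not overlap in these 3 tissues, and the lowest KI value lies above the highest WT value by more than the WT range in liver and heart, but not in muscle, where WT mice spread from 0.18 to 1.63. The KI brains stood at 2.02, 1.48 and 1.20 and the WT brains at 2.20, 1.49 and 1.22, a difference of −0.07 (SE 0.31), and the groups overlap throughout.

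**Figure D1:**
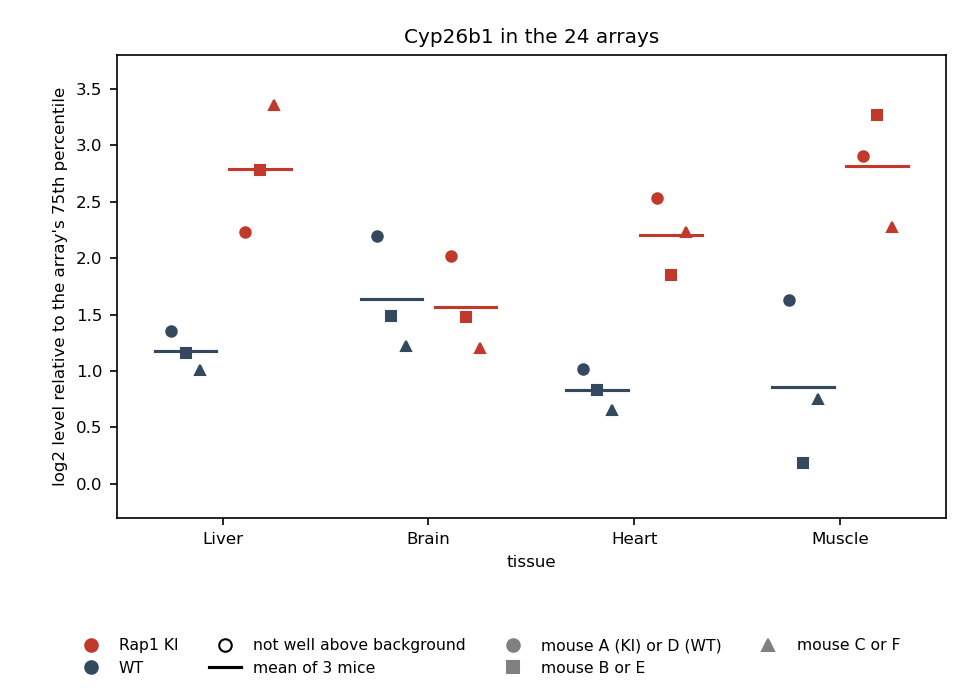
Level of Cyp26b1 on each of the 24 arrays (y axis, log2 against the array's 75th percentile) by tissue (x axis). Points are mice, red for Rap1 KI and dark for WT, and bars are means of 3 mice. The KI points lie above all WT points in liver, heart and muscle, and the genotypes overlap in brain.

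No single KI mouse carried the difference. The order of the KI mice changed with the tissue, C being highest in liver, A in brain and heart and B in muscle. Among the WT mice D was highest in all 4 tissues. Averaged over the 4 tissues, the KI mice stood at 2.42, 2.34 and 2.27 and the WT mice at 1.55, 0.92 and 0.91, a difference of 1.22 (SE 0.19). Without the 2 arrays of C and B that held transcripts of another tissue, the difference was 1.33 in liver and 1.74 in muscle, and without the brain of mouse C it was 0.11 in brain. The arrays lay on 3 slides. All livers were on 1 slide and all muscles on another, so the slide does not separate the genotypes there. In heart the difference was 1.26 within the slide of mice A, B, D and E and 1.58 within that of C and F, and in brain it was −0.18 within the slide of A and D and −0.02 within that of B, C, E and F. Heart slide and age cannot be told apart, since C and F were the younger mice.

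The share of all genes that separate the genotypes gives the background for such counts. Groups did not overlap, with KI higher, for 12.2% of the genes tested in liver, 1.28% of those in brain, 1.8% for heart and 2.17% for muscle, and with KI lower for 7.51%, 1.58%, 3.23% and 1.37%. No gene passed an adjusted p of 0.05 in any tissue by limma (0% of 14092 liver, 16073 brain, 14931 heart and 13516 muscle genes), while 1653, 127, 245 and 115 genes had an unadjusted p under 0.05. No member therefore passed the threshold in any tissue. Of the 8 members other than Cyp26b1, those above background on all 3 arrays of a genotype were tested. This left 7 for liver, 7 for brain, 5 for heart and 5 for muscle. Their median difference was 0.30, 0.20, 0.12 and 0.16 in these tissues, against 0.04, −0.03, −0.05 and 0.02 over all genes tested. Above 0 were 7, 6, 4 and 4 of them, where 55.9%, 41%, 38.2% and 54.8% of all genes were. The members were chosen with earlier results known, so these values are a description.

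**Figure D2:**
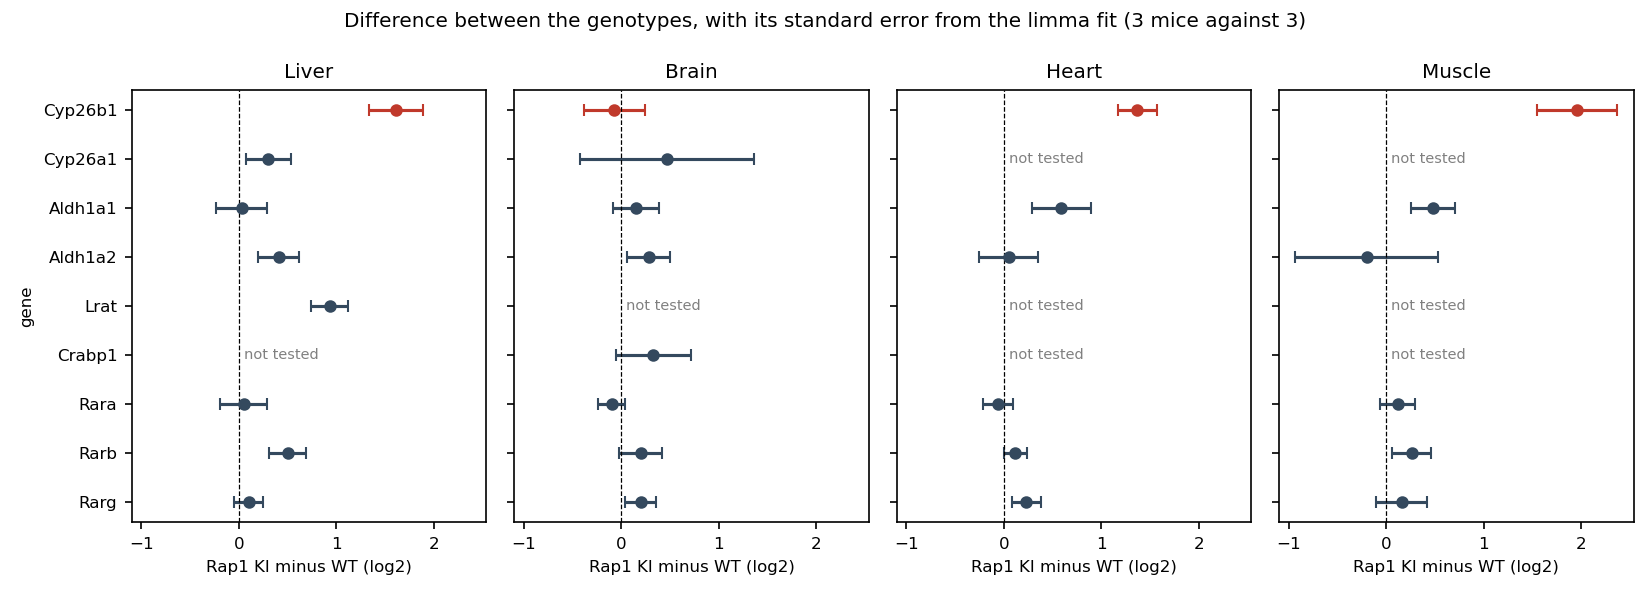
Difference in level between Rap1 KI and WT (x axis, log2) for the 9 genes (y axis) in the 4 tissues. Points are differences of means of 3 mice and bars are standard errors from the limma fit, and genes not above background on all 3 arrays of either genotype are marked as not tested. Cyp26b1, in red, was chosen for this difference, and the next largest is that of Lrat in liver (0.93).

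Cyp26a1, the other CYP26 enzyme of the set, overlapped between the genotypes in liver, brain and heart. It was highest in liver in both genotypes, at 3.60, 3.32 and 3.06 in KI and 3.44, 2.83 and 2.82 in WT livers. The KI livers lay within or just above the WT range, and the difference of 0.30 (SE 0.23) had an adjusted p of 0.580 (limma). In WT mice Cyp26a1 was at least 312-fold higher in liver than in heart and at least 206-fold higher than in muscle, where no WT array was well above background. These bounds set the dim tissue at the lowest signal that was well above background on each of its arrays. Liver also exceeded WT brain, by 8.43 (SE 0.64, adjusted p = 4.02e-07, limma). In the KI brains Cyp26a1 reached −6.49, −5.09 and −3.19 against −4.13, −6.26 and −5.79 in WT brains. The highest KI value was that of mouse C, whose array held liver transcripts, and the difference of 0.47 (SE 0.89) became −0.40 without it. In heart and muscle the genotypes were not tested, since the probe was well above background in the hearts of KI mice B and C alone. The KI hearts stood at −6.93, −3.95 and −4.24 and the WT hearts at −7.57, −5.03 and −6.83. The KI muscles, at −4.27, −5.48 and −6.06, were above the WT muscles, at −6.42 to −6.18, but these signals are all below the background call.

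Of the enzymes that make retinoic acid, Aldh1a1 was higher in the KI hearts and Aldh1a2 did not separate the genotypes in any tissue. Aldh1a1, a retinal dehydrogenase abundant in liver, stood at 2.64, 3.63 and 2.66 in KI and 2.04, 2.58 and 2.52 in WT hearts. The lowest KI heart was narrowly above the highest WT heart, mouse B alone stood well above, and the difference of 0.59 (SE 0.30, adjusted p = 0.971, limma) was 0.27 without B. In that heart 6 adipocyte markers had a mean level of 0.76, against −1.96 to −0.81 in WT hearts, and their part in the result was not tested. The KI muscles had Aldh1a1 levels of 5.85, 5.95 and 5.98 and the WT muscles 5.07, 5.90 and 5.36, a difference of 0.48 (SE 0.23) with overlapping groups. In brain and liver its difference was 0.15 (SE 0.24) and 0.03 (SE 0.26).

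Aldh1a2, the retinal dehydrogenase of many embryonic and mesothelial tissues, differed by 0.41 (SE 0.21) between livers, 0.28 (SE 0.22) between brains, 0.05 (SE 0.30) between hearts and −0.20 (SE 0.73) between muscles. In liver the KI levels of −3.05, −2.94 and −3.16 overlapped the WT levels of −3.71, −3.65 and −3.01. In muscle 1 KI array was not well above background.

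Across WT tissues the 2 synthesis genes had different patterns. Aldh1a1 fell in the order liver (7.93 ± 0.42, SD, n = 3), muscle (5.44 ± 0.42), brain (4.16 ± 0.34) and heart (2.38 ± 0.30), and all 6 tissue pairs passed an adjusted p of 0.05 (limma), the closest neighbours being muscle and brain (1.28 apart, adjusted p = 0.00173). That call of muscle and brain was lost with quantile normalization (−0.42 for brain minus muscle, adjusted p = 0.247) and with slide as a term (−0.98, adjusted p = 0.179). Aldh1a2 was 3.70 to 4.11 higher in brain and heart than in liver and muscle. Its levels in brain and heart (−0.06, adjusted p = 0.874) and in liver and muscle (−0.35, adjusted p = 0.332) were not separated, although liver and muscle were with the normexp background correction (−0.60, adjusted p = 0.0166).

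Lrat, which esterifies retinol for storage, was the member other than Cyp26b1 with the largest difference between the genotypes, in liver. The KI livers stood at 1.57, 1.08 and 1.11 and the WT livers at 0.54, 0.35 and 0.10. All KI livers lay above all WT livers, and the difference was 0.93 (SE 0.19), or 1.90-fold. It did not pass the threshold (adjusted p = 0.358, limma, 0.00203 unadjusted), and the difference stayed between 0.77 and 1.03 when each liver was left out in turn. Lrat was not well above background on any muscle array, on 1 of 3 arrays in each genotype in brain, and in heart only in KI mouse C, at −2.98 against −7.34 to −6.50 in the other 5 hearts. In WT mice liver was at least 52.5-fold above heart, at least 31.6-fold above muscle, and above brain by 7.40 (SE 0.27, adjusted p = 1.24e-09, limma). As only 1 of 3 WT brain arrays was well above background, the size of the brain difference is uncertain.

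In the KI livers some marker lists of non-parenchymal cells were also higher, and others were not. The mean level of 6 fibroblast markers was 1.79 to 2.10 in KI and 1.32 to 1.47 in WT livers, a difference of 0.59, with 4 of 6 genes not overlapping. That of 6 macrophage markers was 2.24 to 2.46 in KI and 1.66 to 1.96 in WT livers, a difference of 0.58, with 6 of 6 genes not overlapping. Over all genes tested in liver, 12.2% did not overlap with KI higher and 7.51% with KI lower. Markers of hepatic stellate cells, the cells that store retinol esters, overlapped as a list of 7 genes without Lrat (0.56 to 0.89 in KI and 0.41 to 0.77 in WT livers). Colec11 (0.41) and Cygb (0.31) of that list were higher in all KI livers and Reln (−0.49) was lower. Endothelial markers differed by 0.06. In heart and muscle, where Cyp26b1 also separated the genotypes, the fibroblast list differed by 0.18 and 0.03. The macrophage list differed by 0.22 and 0.25 there, and both lists overlapped between the genotypes. The part of these cells in the levels of Cyp26b1 and Lrat was not tested.

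**Figure D3:**
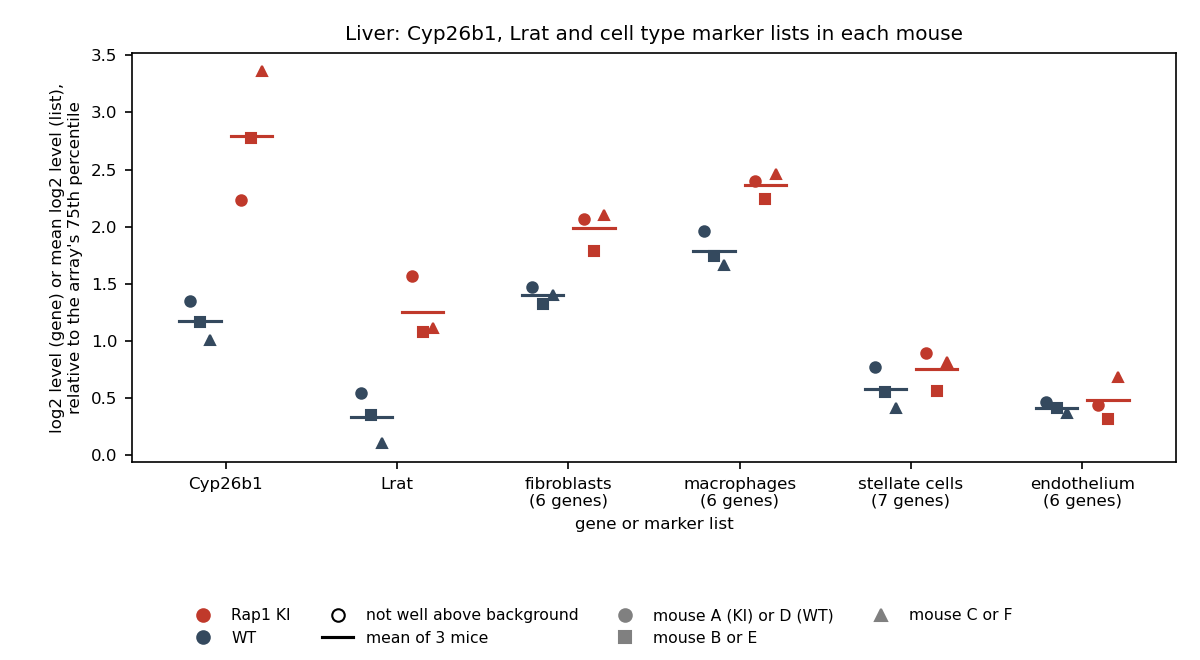
Levels of Cyp26b1 and Lrat and mean levels of 4 marker lists (x axis) in each liver (y axis, log2 against the array's 75th percentile). Points are mice, red for Rap1 KI and dark for WT, and bars are means of 3 mice. Fibroblast and macrophage lists separate the genotypes, as Cyp26b1 and Lrat do, and the stellate cell and endothelial lists overlap.

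Crabp1, a cytosolic carrier of retinoic acid, was measured on all arrays only in brain. There the KI levels of −2.85, −3.47 and −1.93 met WT levels of −3.05, −2.81 and −3.38. The groups overlap and the difference was 0.33 (SE 0.38, adjusted p = 1, limma). In liver, heart and muscle 1 or 2 of 3 arrays of a genotype were well above background and the genotypes were not compared. WT brain exceeded WT liver by 2.47 (SE 1.04, adjusted p = 0.0477, limma), a call that was lost when the tissues were compared within mice (adjusted p = 0.0776), with quantile normalization (0.0541), normexp (0.0915), no filter (0.0566) or slide as a term (0.2). Without the liver of WT mouse D, at −8.31 and not above background, liver minus brain was −1.09.

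None of the receptors passed the threshold between the genotypes in any tissue, where no gene of all those tested did. A genotype difference that varied between tissues was not shown for Rara, Rarb or Rarg (limma F-test). Rara, a nuclear receptor for retinoic acid, differed by −0.10 to 0.12 between the genotypes in the 4 tissues (SE 0.14 to 0.24) by its brighter probe. Its second probe gave 0.33 in muscle, where KI levels of 0.26, 0.52 and 0.20 lay above WT levels of −0.06, −0.09 and 0.12. In liver, brain and heart that probe gave −0.03, −0.09 and 0.08, and the groups overlapped. Rarg, the third receptor, differed by 0.10 (SE 0.15) between livers, 0.20 (SE 0.16) between brains, 0.23 (SE 0.15) between hearts and 0.16 (SE 0.26) between muscles. The KI hearts, at 2.77, 3.13 and 2.78, narrowly cleared the WT hearts, at 2.64, 2.74 and 2.61 (adjusted p = 0.971, limma).

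Rarb was the receptor with the largest difference by the brightest probe of each gene, in liver. It is a known target of retinoic acid and carries the repeat shown above, whose part in the difference was not tested. The KI livers stood at 1.48, 1.27 and 0.87 and the WT livers at 0.90, 0.64 and 0.59. Mouse C overlaps mouse D, and the difference was 0.50 (SE 0.19, adjusted p = 0.409, limma, 0.0367 unadjusted), or 1.41-fold. The other 2 probes of the gene gave other values in liver, 0.19 for the second and −1.21 for the third, which was above background on 1 KI and 2 WT arrays. In brain, heart and muscle Rarb differed by 0.20 (SE 0.22), 0.12 (SE 0.12) and 0.26 (SE 0.20), and in muscle the second probe gave −0.27.

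**Figure D4:**
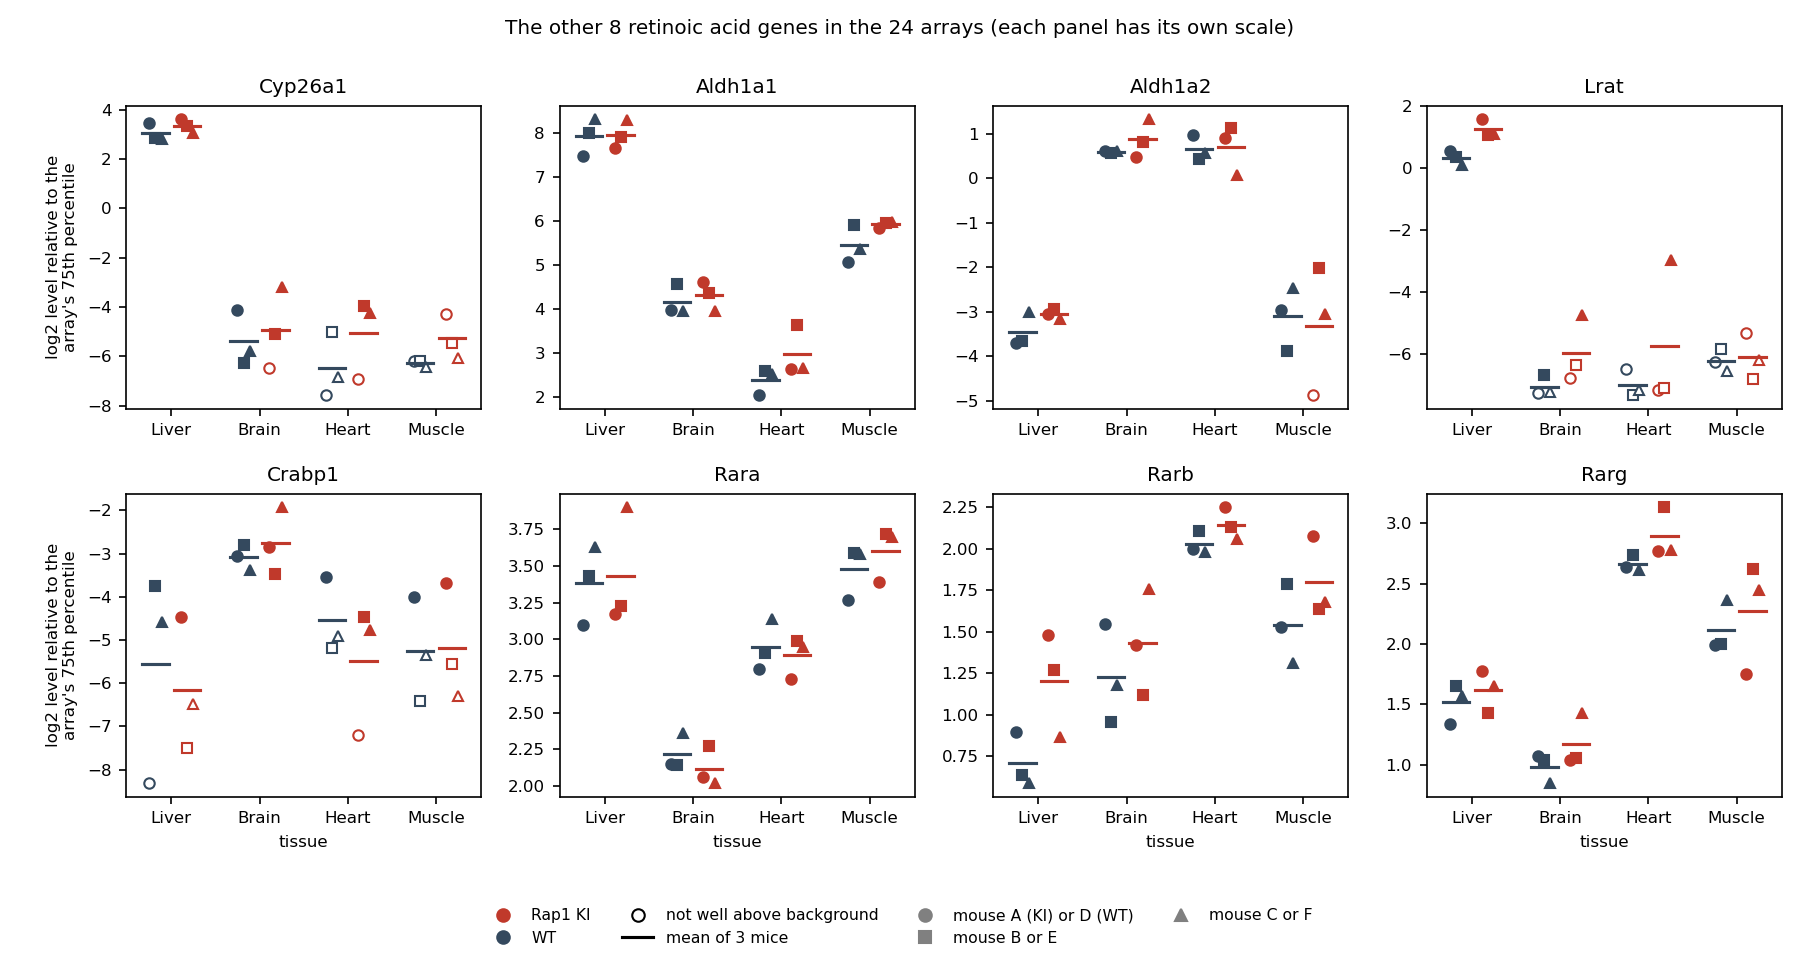
Levels of the other 8 genes on the 24 arrays (y axis, log2 against the array's 75th percentile, each panel with its own scale) by tissue (x axis). Points are mice, red for Rap1 KI and dark for WT, open where the probe was not well above background, and bars are means of 3 mice. The tissues differ far more than the genotypes for Cyp26a1, Lrat, Aldh1a1 and Aldh1a2.

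The receptors also differed between tissues, each in its own order. In WT mice Rara was lowest in brain (2.22 ± 0.13, SD, n = 3), higher in heart (2.95 ± 0.17) and highest in muscle (3.48 ± 0.18) and liver (3.38 ± 0.27), which were not separated (adjusted p = 0.598, limma). The second Rara probe placed liver above muscle, by 0.94. Rarb rose from liver (0.71 ± 0.17) through brain (1.23 ± 0.30) and muscle (1.54 ± 0.24) to heart (2.03 ± 0.07), and among neighbours brain and muscle were not separated (adjusted p = 0.127). Rarg rose from brain (0.98 ± 0.12) through liver (1.52 ± 0.16) and muscle (2.12 ± 0.21) to heart (2.66 ± 0.07), and all 6 pairs passed the threshold. With slide as a term the pairs liver and brain (adjusted p = 0.0921), liver and muscle (0.0913) and heart and muscle (0.0968) no longer passed, and liver and brain also did not in the deposited table of z-scores (0.0743).

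In WT mice the levels of Cyp26b1 were 1.64 ± 0.51 in brain, 1.18 ± 0.17 in liver, 0.85 ± 0.73 in muscle and 0.83 ± 0.19 in heart (SD, n = 3). In the KI mice the order was muscle (2.82), liver (2.79), heart (2.20) and brain (1.57). Both orders are a description, without a test, since the KI and the WT values together chose the gene.

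Most tissue differences of the other 8 members that passed in WT mice also passed in KI mice. The background is high in these comparisons: among all genes tested in WT mice, 80.3% passed the threshold between liver and brain, 74.8% between liver and heart, 79.1% between liver and muscle, 75.4% between brain and heart, 78.3% between brain and muscle and 59.3% between heart and muscle. Of 41 comparisons of the 8 members in WT mice 33 passed, close to that background, and 30 of the 33 passed in the same direction in the KI mice, none in the opposite direction. For the other retinoid genes listed below, 206 of 231 such calls passed in the same direction, and 1 had the opposite direction. The share of such calls over all genes was not computed, so the count is not particular to the members. The KI and WT mice share no arrays in these counts.

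Across arrays no member correlated with Cyp26b1 as highly as the top 1% of genes did. With the mean of each tissue subtracted, the level of Cyp26b1 over the 24 arrays correlated with that of Rarb at r = 0.40, Aldh1a1 at 0.29, Cyp26a1 at 0.28, Rarg at 0.21, Lrat at 0.20, Aldh1a2 at 0.08, Rara at 0.05 and Crabp1 at −0.15. For 1% of 11619 genes above background on all arrays r was above 0.53. Against those genes Rarb stood at percentile 94.7, Aldh1a1 at 85.9, Cyp26a1 at 84.3 and Rarg at 77. Lrat stood at 75.6, Aldh1a2 at 59.2, Rara at 56 and Crabp1 at 27.6. These values are a description, since arrays of a mouse share the animal and the genotype difference that chose Cyp26b1 enters each of them. With the mean of each of the 8 groups subtracted, r lay between −0.24 and 0.07 for the members. The genes most like Cyp26b1 were Gm11696 (0.72), Tor3a (0.70), Afap1 (0.70), 6330418K02Rik (0.68) and Vsir (0.68). Tor3a, of the torsin family, differed between the genotypes by 0.74 in liver, 0.36 in muscle and 0.11 in heart, and Vsir, an inhibitory receptor of immune cells, by 0.36, 0.50 and 0.17, and these differences enter the correlation that named them. Averaged over the 4 tissues, the members above background on all arrays differed by 0.31 (SE 0.18) for Aldh1a1, 0.27 (SE 0.11) for Rarb, 0.17 (SE 0.10) for Rarg and 0.00 (SE 0.13) for Rara (adjusted p of 0.982 to 0.999, limma). The difference between genotypes was not shown to vary between tissues for any of these 4 (adjusted p = 1, limma F-test).

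The wider pathway was read from 60 further genes of retinol transport, retinol and retinal oxidation and reduction, storage, binding, degradation, receptors and known responses to retinoic acid, of which 58 were on the array. None passed the threshold in any tissue, and the median difference was 0.14 for liver, 0.08 for brain, −0.02 for heart and 0.02 for muscle, against 0.04, −0.03, −0.05 and 0.02 over all genes tested. In liver 8 of 48 tested genes (16.7%) were higher in all KI mice and 2 (4.17%) lower, close to the 12.2% and 7.51% of all genes. Among the higher, 3 had the largest differences. Hoxa5, a homeobox gene that responds to retinoic acid, was at −4.78, −3.97 and −3.98 in KI and −4.82, −5.09 and −5.08 in WT livers, a difference of 0.75 (SE 0.24, adjusted p = 0.402, limma). Aldh1a3, the third retinal dehydrogenase, differed by 0.68 (SE 0.18, adjusted p = 0.365), with levels of −3.95 to −3.68 in KI and −4.80 to −4.22 in WT livers. Hic1, a transcriptional repressor, differed by 0.54 (SE 0.16, adjusted p = 0.384). Both Hoxa5 and Aldh1a3 were near background, on 2 of 3 WT arrays above it.

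Lower in all KI livers were Dgat1 (−0.34, SE 0.17), which can also esterify retinol, and Rdh10 (−0.30, SE 0.12), a retinol dehydrogenase that makes retinal. The highest KI level of Dgat1 met the lowest WT level at 1.71 to 2 decimals. The list of response genes also holds the members Cyp26a1 and Rarb, which overlapped between the genotypes in liver. Of this list 4 of 13 tested genes (30.8%, against 12.2% of all genes) were higher in all KI livers (Hoxa5, Hic1, Dhrs3 and Tgm2). None of 15 were in brain and none of 13 in heart, where the share of all genes was 1.28% and 1.8%, and a difference between tissues was not shown for any of these 4 genes (adjusted p = 1, limma F-test). In muscle 1 of 14 separated (7.14%, against 1.37% of all genes with KI lower). It was Egr1, an immediate early gene, at 1.51, 1.15 and 0.22 in KI muscles against 1.64, 3.95 and 2.46 in WT muscles (−1.72, SE 0.61, adjusted p = 1, limma). Dhrs3, a retinal reductase induced by retinoic acid, differed by 0.32 (SE 0.13) between livers, 0.20 (SE 0.17) between brains, −0.07 (SE 0.18) between hearts and 0.25 (SE 0.20) between muscles. In heart none of the 43 other retinoid genes tested separated the genotypes, near the 1.8% (KI higher) and 3.23% (KI lower) of all genes. The largest difference among them was 1.75 (SE 0.70, adjusted p = 0.971, limma), for Stra6, a gene of retinol uptake. Its levels were −3.81, −1.95 and −3.43 in KI hearts and −5.04, −3.49 and −5.93 in WT hearts. Of the WT hearts, 2 of 3 were above background.

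**Figure D5:**
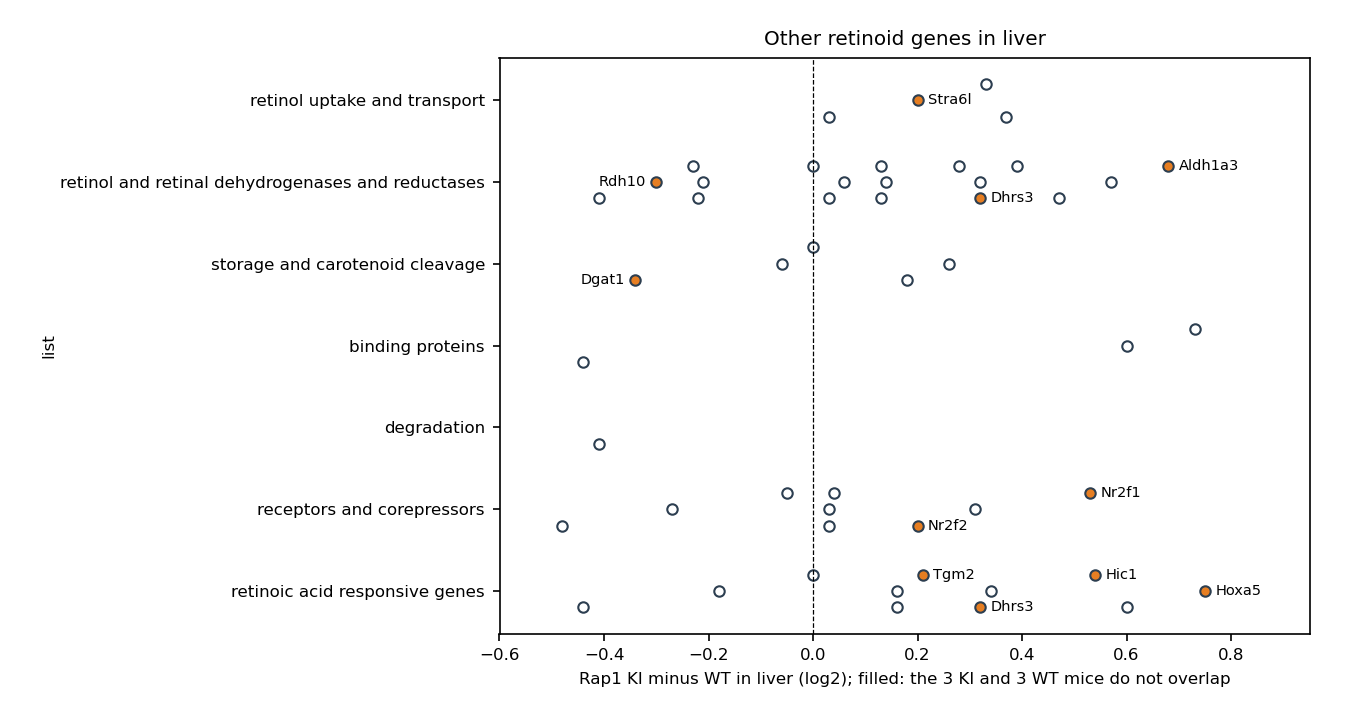
Difference between Rap1 KI and WT liver (x axis, log2) for the other retinoid genes tested, by list (y axis). Each point is a gene, filled and named where the 3 KI and 3 WT livers do not overlap, and a gene in 2 lists (Dhrs3) is drawn in both. The named genes lie between −0.34 and 0.75.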

How the data were processed

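RNA of 24 samples was hybridised to 1-colour Agilent mouse arrays, 1 array per sample. Per the file headers, the authors extracted the deposited intensities with Feature Extraction 12.0.3.1, and the processed signal used here was already corrected for background and not yet normalized between arrays. Deposited median spot and background intensities served for an alternative correction. A further table that the authors deposited holds scores of 33912 features, which matched z-scores of the log signal within each array (largest difference 0.005, array medians of −0.1 to 0.095) and was used only as an alternative.

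Of 62976 spots per array, control spots and 121 to 347 outlier spots were left out, and spots of a probe were averaged. Values are log2 of the signal minus the array's 75th percentile (a signal of 312.464 to 2519.44, with no saturated spot). Precision is limited by 3 arrays per group. Probes were named through RefSeq accessions (99% of 26732 curated mRNA probes matched), and the probe with the highest mean stood for a gene. Members, gene lists and motifs were chosen with earlier results of these data known.

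Tests took genes whose probe passed the software's background call on each of the 3 arrays of 1 or more of the groups compared. The fits used limma 3.58.1 in R 4.3.3 (two-sided, Benjamini-Hochberg over all genes tested, threshold 0.05), over 6 arrays for a genotype comparison, 12 for tissue pairs, 6 means per mouse for the average and 24 for the F-test, and were tested on simulated data. A mouse number shared by arrays marks 1 animal, which pairs tissues and not genotypes. Deviations from the group means correlated at a mean r of 0.0207 within mice and −0.00936 between mice over 11620 genes. Named were all members, at most 3 other retinoid genes per direction and comparison whose groups did not overlap, and the 5 genes most like Cyp26b1. Further genes are named where a count of 5 or fewer holds them, and Stra6 for the largest difference of the other retinoid genes in heart. Alternatives were quantile normalization, normexp with an offset of 50, the score table, no filter, the second probe, each array left out, all 24 arrays in a fit, mouse, slide and age.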

Additional observations from a re-analysis of the deposited data

How the results depend on the processing

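The differences of Cyp26b1 between the genotypes kept their direction in liver, heart and muscle under every alternative run, and lay between 1.33 and 1.89, 1.21 and 1.54, and 1.63 and 2.35 when each array was left out. In the score table they were 0.39, 0.36 and 0.51, in units of the spread over an array. Brain had no direction, at −0.30 to 0.21.

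Counts of genes past the threshold moved as follows. With all 24 arrays in a fit, with or without a replicate block for the mouse, 3 genes passed in liver (Gm35287, Pla2g4f and Tmem255a) and 1 for the mean of the 4 tissues, which was Cyp26b1 itself and is no support, since it was chosen for this contrast. For the difference between tissues 1 gene (Bves) passed with quantile normalization, and 0 to 1 (Nags or Lrrc6) when a mouse was left out. With the second probe, which tests fewer genes, the tissue pairs in the order liver against brain, heart and muscle, brain against heart and muscle, and heart against muscle gave 3534, 2912, 2925, 3208, 3315 and 2148 in WT and 3328, 2641, 2688, 2969, 3098 and 1846 in KI mice. With slide as a term, liver against muscle gave 7115 and heart against muscle 5828 in WT mice. In KI mice liver against heart gave 6108, liver against muscle 4934, brain against muscle 6883 and heart against muscle 3288. The cause was not tested.

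Small differences changed sign. In liver Aldh1a1 was −0.12 with quantile normalization and 0.00 with normexp, and Rara −0.03 with normexp and with the second probe. In heart Rara was 0.02 with quantile normalization and 0.08 with the second probe. In muscle Aldh1a2 was 0.09 with normexp and Rarb −0.27 with the second probe, and the mean of Rara was −0.02 with normexp. Left-out arrays gave −0.20 to 0.22 for Aldh1a1 and −0.18 to 0.18 for Rara in liver, 0.00 to 0.35 for Aldh1a1, −0.08 to 0.69 for Crabp1 and −0.40 to 1.25 for Cyp26a1 in brain, −0.16 to 0.36 for Aldh1a2 and −0.14 to 0.03 for Rara in heart, −0.84 to 0.58 for Aldh1a2 and −0.02 to 0.42 for Rarg in muscle, and −0.09 to 0.09 for the mean of Rara. In WT mice, with slide as a term, Cyp26b1 was −0.60 for liver against heart and −0.80 for liver against muscle, and Rara 0.29 for liver against muscle (0.94 with the second probe). Cyp26b1 in heart against muscle was 0.02 with quantile normalization and 0.01 in the score table, and Aldh1a2 in brain against heart 0.01 in that table. Left-out arrays gave −0.22 to 0.05 for Rara and −0.01 to 0.71 for Cyp26b1 in liver against muscle, −0.18 to 0.10 for Aldh1a2 in brain against heart and −0.36 to 0.37 for Cyp26b1 in heart against muscle.

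The replicate block for the mouse changed 1 call between WT tissues among the 8 members other than Cyp26b1, that of Crabp1 (liver against brain, −2.47, adjusted p = 0.0776). With slide as a term Aldh1a1 in brain against muscle and Rarg in 3 pairs were also lost, and quantile normalization lost Aldh1a1 in that pair and Rara in liver against heart (0.14) and heart against muscle (−0.30). Rara in liver against heart and in heart against muscle and Rarb in heart against muscle were lost with slide as a term and under 3 to 5 left-out arrays each, and Rarb in liver against brain under 3 left-out arrays and with the second probe (−0.29). Signals near background limit Crabp1, Lrat and Cyp26a1 outside the tissue where each was measured.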

Other observations

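Some arrays gave single high values of members that are otherwise near background, listed without a comparison. Lrat was at −2.98 in the heart of KI mouse C, where the mean level of 6 liver markers was −3.60 against −3.77 to −3.44 in the WT hearts. Lrat was at −4.74 and Cyp26a1 at −3.19 in the brain of KI mouse C, where the liver markers were at 4.04.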
